A study of Rattus norvegicus with 8 samples.

Results

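The genes described here make, load, take up, break down and sense the inhibitory transmitter GABA: Gad1, Gad2, Slc32a1, Slc6a11, Abat, Gabbr1 and Gabbr2. They were measured in rat brain on an Affymetrix rat expression array, whose probe sets (groups of short probes) are directed mostly at the 3' ends of transcripts. A single gene can have several probe sets. Members were all probe sets that the platform annotation gives to exactly 1 of these symbols, whatever their values. They came to 7 of 14217 genes and 15 of 31042 probe sets.

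There were 4 arrays of inactivated baculovirus and 4 of phosphate-buffered saline (PBS), numbered here as replicates 1 to 4 within each group. For the first group the striatum of adult male rats of 250 to 300 g had been injected with 50000000 particles in 5 µl of a vector made from baculovirus, an insect virus that enters mammalian cells without multiplying in them. The particles had been inactivated under 254 nm ultraviolet light for 1 hour. For the second it had received 5 µl of PBS, so both groups had an injection wound, and the tissue of both was collected 48 hours later. The labels give the strain as Wistar for all arrays except PBS replicate 2, which carries no strain label, and they give no age beyond adult. The study's text names 7 rats and PBS on the contralateral side without tying arrays to rats, so p-values measure the spread between these samples, some of which may share an animal.

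GABA is made from glutamate by a pair of decarboxylases, packed into synaptic vesicles by a transporter that it shares with glycine, cleared by plasma membrane transporters of neurons and astrocytes, and degraded in mitochondria. It acts on GABA-A receptors, which are chloride channels, and on GABA-B receptors, which signal through G proteins and slow both transmitter release and firing. Most neurons of the striatum, its spiny projection neurons and its local interneurons alike, use GABA as their transmitter.

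No member passed an adjusted p of 0.05 in limma, and neither did any other probe set on the array. Of the 15 member probe sets, 11 lay above the level filter (a mean intensity of about 26.0 over all 8 arrays) and were tested among 18625. Their means were higher after inactivated baculovirus for 8 and lower for 3, against 53.7% higher and 46.3% lower over all tested probe sets. The median log2 fold change was 0.14 over these 11, against 0.01 over all tested, and the median size without sign was 0.14 against 0.08. Counted by gene, through the brightest probe set of each, 3 had a higher mean (Slc32a1, Abat and Gabbr2) and 3 a lower one (Gad1, Gad2 and Gabbr1). For Gabbr1 that log2 fold change was -0.01, its other tested probe sets were higher, and the mean of its tested probe sets gave 0.22. The called share was 0% of all probe sets, 1 of the 11 members was under an unadjusted limma p of 0.05 where 6.73% of all were, and 1 had groups that did not overlap where 3.86% of all did. Both counts refer to the same probe set of Gad1, in the lower direction, in which 4.22% of all probe sets were under 0.05 and 2.31% had separate groups. In the higher direction both counts were 0 of 11, against 2.51% and 1.55% of all. Limma adjusted p values of the 11 ran between 0.688 and 0.990, and the lowest on the array was 0.272. Fold changes are differences of log2(intensity + 16), inactivated baculovirus minus PBS.

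**Figure D1:**
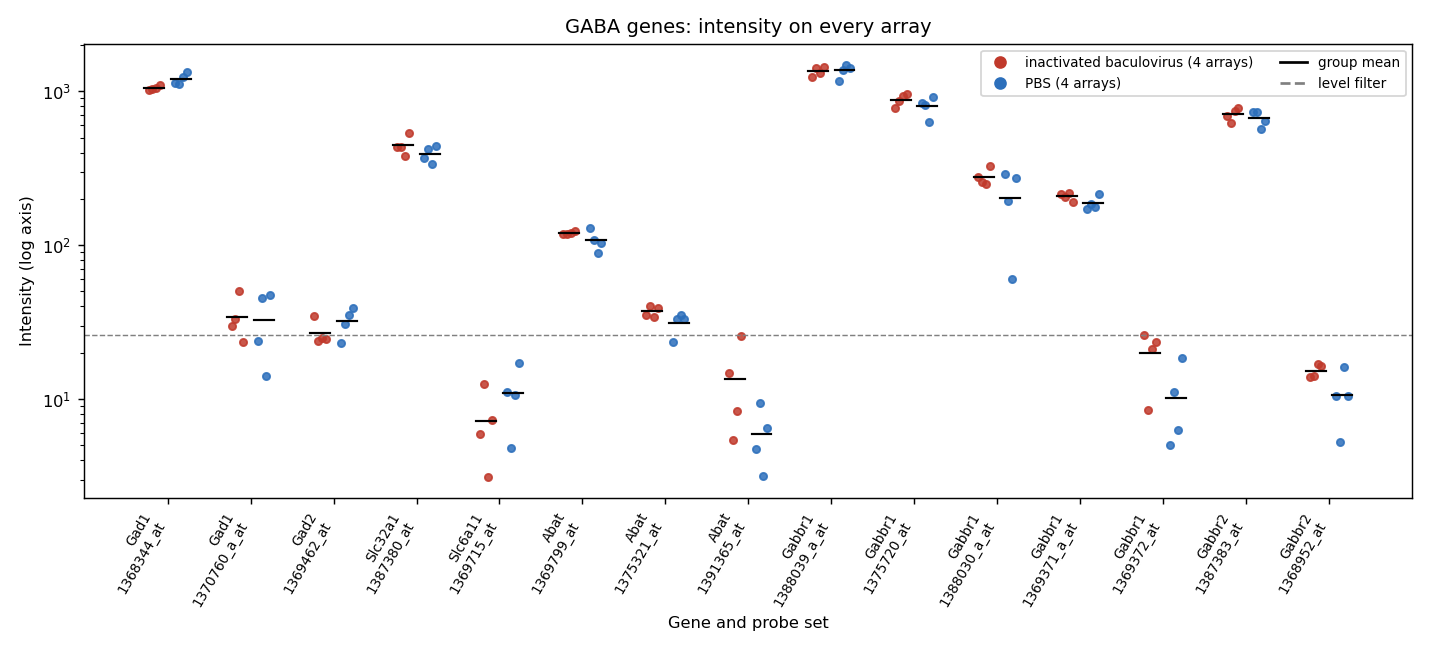
Intensity (log axis) of all 15 member probe sets on each of the 8 arrays, with inactivated baculovirus arrays left of PBS arrays, a bar at each group mean and the level filter as a dashed line. The groups lie apart only for Gad1 1368344_at, and 1 PBS array is far below the rest for Gabbr1 1388030_a_at, at 60.002.

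Of 18 markers of striatal projection neurons 17 were tested, with 5 higher and 12 lower, and their summed intensity ran from 7783 to 10593 on inactivated baculovirus arrays and from 7950 to 10615 on PBS arrays. The defining markers were all well above the filter: Ppp1r1b, a dopamine signalling protein, was at 1193 ± 131 against 1152 ± 180, the dopamine receptor Drd1 at 334 ± 40.3 against 384 ± 73.2, and the adenosine receptor Adora2a at 231 ± 31.7 against 256 ± 52.9 (intensity, inactivated baculovirus first, SD, n = 4 each). Slc17a7, the vesicular glutamate transporter of cortical neurons, was also high, at 1034 ± 162 against 915 ± 309, so the tissue was not striatal projection neurons alone. On PBS replicate 3 it was at 454, against 909 to 1270 on the other arrays. On PBS replicate 4 the choroid plexus gene Ttr was at 47.7, against 1563 to 1968 on the other arrays. In bulk tissue, fewer cells of a type and less RNA per cell cannot be told apart.

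Gad1 encodes GAD67, the decarboxylase that makes most of the GABA of the cell body. Its brighter probe set, 1368344_at, had intensities of 1027, 1042, 1050 and 1091 on inactivated baculovirus replicates 1 to 4, against 1134, 1109, 1245 and 1332 on PBS replicates 1 to 4. Every inactivated baculovirus array lay below every PBS array, and the spread was narrower after inactivated baculovirus. The means were 1053 ± 27.4 and 1205 ± 103 (SD, n = 4 each), a ratio of 0.877. The log2 fold change was -0.19 ± 0.07 (SE), with a 95% interval of -0.34 to -0.04, a limma p of 0.0167 and a limma adjusted p of 0.688, rank 451 of 18625 by p. An exact permutation test of this probe set alone gave p = 0.0286, the smallest that 4 against 4 arrays allow. Without PBS replicate 4, the highest array and the one low in Ttr, the log2 fold change was -0.14 (limma adjusted p = 0.506). Gad1 was then no longer under an unadjusted limma p of 0.05.

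The other Gad1 probe set, 1370760_a_at, did not show that separation. It was at 30.0, 32.9, 50.5 and 23.5 after inactivated baculovirus, against 23.9, 45.2, 14.0 and 47.7 after PBS, close to the level filter. The groups overlapped over most of their range. Its log2 fold change was 0.08 ± 0.23 (SE, 95% interval -0.40 to 0.57, limma adjusted p = 0.959), so the interval contains the estimate of the brighter probe set as well as 0. The difference between the fold changes of the pair was -0.27 (exact permutation p = 0.429, two-sided). With the mean of both probe sets in place of the brighter one, the log2 fold change of Gad1 was -0.05 (exact permutation p = 0.771).

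A technical reading of the arrays separated the groups in the same way as Gad1 1368344_at. The hybridization controls, bacterial and phage transcripts added to each sample before hybridization, had a mean log2 level of 8.13, 7.65, 7.36 and 7.57 on inactivated baculovirus arrays, against 8.23, 8.18, 8.51 and 8.38 on PBS arrays. The group averages were 7.68 ± 0.324 and 8.33 ± 0.149 (SD, n = 4 each), with the smallest possible p of 0.0286 in an exact permutation test. Gad1 and that level correlated at r = 0.696 (exact permutation p = 0.0543, Benjamini-Hochberg 0.351 over 14 relations) and rho = 0.762 (exact permutation p = 0.0368, Benjamini-Hochberg 0.257), with r = 0.752 without inactivated baculovirus replicates 3 and 4. With group means removed r was 0.153. With the control level as a covariate, chosen after seeing the data, the log2 fold change of Gad1 was -0.15 ± 0.13 (SE, limma adjusted p = 1.00), again not under an unadjusted limma p of 0.05. The control level and the group cannot be told apart here.

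Gad2 encodes GAD65, the decarboxylase associated with synaptic vesicles in nerve endings. Its single probe set, 1369462_at, was dim: 34.6, 23.9, 24.9 and 24.7 after inactivated baculovirus, against 23.2, 30.5, 35.2 and 39.2 after PBS. After inactivated baculovirus 3 arrays lay within about 1 unit of each other and replicate 1 stood above them. The groups overlapped, with means of 27.0 ± 5.08 and 32.0 ± 6.86 (SD, n = 4 each). The log2 fold change was -0.15 ± 0.13 (SE, 95% interval -0.44 to 0.13, limma adjusted p = 0.824). It was -0.08 without PBS replicate 4, -0.25 without PBS replicate 1 and -0.23 without inactivated baculovirus replicate 1. Gad2 and the hybridization control level correlated at r = 0.708 (exact permutation p = 0.0648, Benjamini-Hochberg 0.351) and rho = 0.500. With group means removed r was 0.704 (permutation p = 0.0484, Benjamini-Hochberg 0.472). That p is not exact, since values were permuted across both groups after each group's mean was taken out. With the hybridization control level as a covariate the log2 fold change of Gad2 was 0.19.

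Slc32a1 encodes the vesicular GABA transporter, which loads GABA and glycine into synaptic vesicles. Its single probe set, 1387380_at, was at 432, 436, 381 and 538 after inactivated baculovirus, against 371, 424, 338 and 441 after PBS. Inactivated baculovirus replicate 4 was the highest array and PBS replicate 3 the lowest, and the groups overlapped. The means were 447 ± 66.0 and 394 ± 47.8 (SD, n = 4 each), a log2 fold change of 0.17 ± 0.11 (SE, 95% interval -0.06 to 0.41, limma adjusted p = 0.777). It ranged from 0.08, without inactivated baculovirus replicate 4, to 0.24, without inactivated baculovirus replicate 3, when each array was left out in turn. Across the arrays Gad1 and Slc32a1 correlated at r = -0.235, which ranked Slc32a1 7281 of 10538 genes by likeness to Gad1, and Gad1 and Gad2 at 0.628, rank 336.

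Slc6a11 encodes GAT-3, a plasma membrane transporter that clears GABA mainly into astrocytes. Its probe set 1369715_at lay below the level filter and was not in the main test. It was at 5.95, 12.5, 3.10 and 7.32 after inactivated baculovirus, against 11.1, 4.83, 10.6 and 17.2 after PBS, and the groups overlapped. The log2 fold change was -0.21, and with no level filter it had an SE of 0.16 and a limma adjusted p of 0.849.

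Abat encodes GABA transaminase, the mitochondrial enzyme that begins GABA breakdown. Its brightest probe set, 1369799_at, was at 118, 118, 119 and 123 after inactivated baculovirus, against 130, 108, 88.9 and 103 after PBS. The inactivated baculovirus arrays lay close together inside the range of the PBS arrays, whose highest was replicate 1 and lowest replicate 3. The means were 120 ± 2.58 and 107 ± 16.9 (SD, n = 4 each), a log2 fold change of 0.14 ± 0.10 (SE, 95% interval -0.08 to 0.37, limma adjusted p = 0.788). Without PBS replicate 3 it was 0.07, without PBS replicate 1 it was 0.23, and with the hybridization control level as a covariate it was 0.0047.

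The probe set 1375321_at of Abat gave a similar fold change from a different pattern of arrays. It was at 35.2, 40.1, 34.2 and 38.8 after inactivated baculovirus, against 23.4, 33.1, 35.2 and 33.0 after PBS. PBS replicate 1, the highest array for 1369799_at, was the lowest here. The log2 fold change was 0.18 ± 0.11 (SE, 95% interval -0.07 to 0.42, limma adjusted p = 0.780), and 0.09 without PBS replicate 1. The pair differed by -0.03 in fold change (exact permutation p = 0.914) and correlated at r = -0.245 (exact permutation p = 0.527). With the mean of both tested probe sets in place of the brightest, the log2 fold change of Abat was 0.16, with the smallest possible p of 0.0286 in an exact permutation test of that value alone. No p over all genes was computed for these means of probe sets. The third Abat probe set, 1391365_at, was below the filter, with 14.8, 5.40, 8.39 and 25.5 after inactivated baculovirus against 4.72, 9.36, 3.14 and 6.51 after PBS (log2 fold change 0.39, limma adjusted p = 0.807 with no level filter).

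Gabbr1 encodes the GABA-B subunit that binds the transmitter, and its splice forms differ in their extracellular part. It had 5 probe sets, more than any other member. The brightest, 1388039_a_at, was at 1246, 1412, 1318 and 1434 after inactivated baculovirus, against 1173, 1383, 1490 and 1419 after PBS. The groups overlapped fully, with means of 1353 ± 87.2 and 1367 ± 136 (SD, n = 4 each). The log2 fold change was -0.01 ± 0.08 (SE, limma adjusted p = 0.990). Its 95% interval of -0.18 to 0.16 is for this probe set alone and treats the arrays as independent.

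The probe set 1388030_a_at of Gabbr1 had the largest log2 fold change of the 11 tested, 0.60 ± 0.33 (SE, 95% interval -0.10 to 1.30, limma adjusted p = 0.756), and it rested on 1 array. It was at 278, 256, 251 and 328 after inactivated baculovirus, against 288, 193, 60.002 and 274 after PBS. PBS replicate 3 was far below every other array, and the remaining PBS arrays overlapped with the inactivated baculovirus arrays. Without that array the PBS mean was 252 ± 51.3 (SD, n = 3) and the log2 fold change 0.15 (limma adjusted p = 0.977). With the hybridization control level as a covariate it was 0.12.

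Of the other tested Gabbr1 probe sets, 1375720_at was at 784, 861, 930 and 954 after inactivated baculovirus, against 837, 818, 631 and 921 after PBS. PBS replicate 3 was again the lowest. The log2 fold change was 0.14 ± 0.10 (SE, limma adjusted p = 0.792), and 0.04 without that array. The probe set 1369371_a_at was at 216, 204, 219 and 190 after inactivated baculovirus, against 172, 186, 176 and 214 after PBS, with a log2 fold change of 0.14 ± 0.09 (SE, limma adjusted p = 0.777). Here 3 of 4 PBS arrays lay below all inactivated baculovirus arrays, and PBS replicate 4 lay among them. The fifth, 1369372_at, was below the filter, at 26.1, 8.54, 21.0 and 23.5 against 5.00, 11.1, 6.26 and 18.4, and with no level filter its log2 fold change of 0.45 had a limma p of 0.0431 and a limma adjusted p of 0.794.

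Gabbr2 encodes the partner subunit, which couples the GABA-B receptor to G proteins and brings it to the cell surface. Its brighter probe set, 1387383_at, was at 691, 623, 742 and 775 after inactivated baculovirus, against 729, 734, 571 and 642 after PBS. The groups overlapped, with means of 708 ± 66.4 and 669 ± 77.6 (SD, n = 4 each) and a log2 fold change of 0.08 ± 0.09 (SE, 95% interval -0.12 to 0.28, limma adjusted p = 0.878). The probe set 1368952_at was below the filter, at 13.9, 14.1, 17.0 and 16.3 against 10.5, 5.22, 16.0 and 10.4. Its log2 fold change was 0.25 (limma adjusted p = 0.813 with no level filter). Across arrays Gabbr1 and Gabbr2 correlated at r = -0.472 through their brightest probe sets, which put Gabbr1 at rank 9358 of 10538 genes by likeness to Gabbr2.

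**Figure D2:**
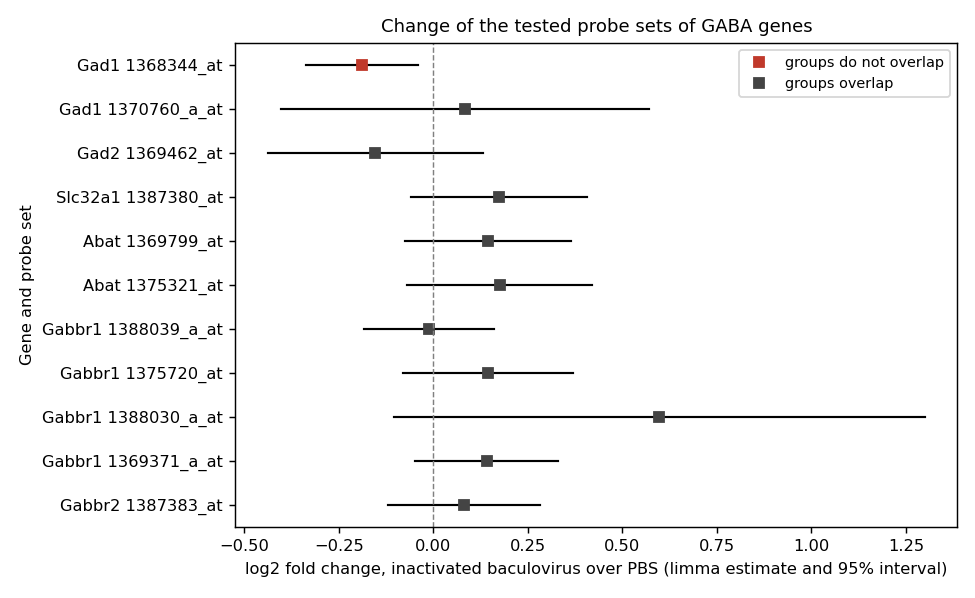
Log2 fold change, inactivated baculovirus over PBS, of the 11 tested member probe sets, as the limma estimate with its 95% interval. The interval leaves out 0 only for Gad1 1368344_at, from -0.34 to -0.04, and is widest for Gabbr1 1388030_a_at, from -0.10 to 1.30.

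Probe sets of 1 gene are directed at transcripts of that gene and were compared with each other on the same arrays. The 4 genes with several probe sets gave 15 pairs, of which 10 had fold changes of the same direction and 5 of opposite direction. Among the 8 pairs with both probe sets above the filter, 4 had the same direction and 4 opposite ones. For the difference in fold change, 0 of 15 pairs were under an exact permutation p of 0.05 (smallest Benjamini-Hochberg value 0.607). The smallest p that 4 against 4 arrays allow is 0.0286, so a single pair could not have passed the adjustment. The test therefore does not show that probe sets of a gene agree. Gabbr1 1388039_a_at differed from 1388030_a_at by -0.61 in log2 fold change (exact permutation p = 0.371), from 1375720_at by -0.16 (exact permutation p = 0.486) and from 1369371_a_at by -0.15 (exact permutation p = 0.286). Without PBS replicate 3 these differences were -0.12, -0.0045 and -0.09, and that of the Gad1 pair was -0.05. The Gad1 difference reached -0.44 without PBS replicate 2.

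Over the 8 arrays, the correlation between probe sets of a gene ran from r = -0.486 to 0.882. The lowest belonged to Gabbr1 1388039_a_at with 1388030_a_at and the highest to 1375720_at with 1388030_a_at. The pair with the highest had an exact permutation p of 0.023 for r (Benjamini-Hochberg 0.318 over 15 pairs) and rho = 0.476 (exact permutation p = 0.243). Without the 2 arrays farthest from the median r was 0.132, and without PBS replicate 3 alone it was 0.417, so the relation rested on PBS replicate 3. The Gad1 pair correlated at r = -0.104 and rho = -0.119. Below the filter, Gabbr1 1369372_at correlated with 1369371_a_at at r = 0.746 (exact permutation p = 0.042), which did not pass after adjustment.

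**Figure D3:**
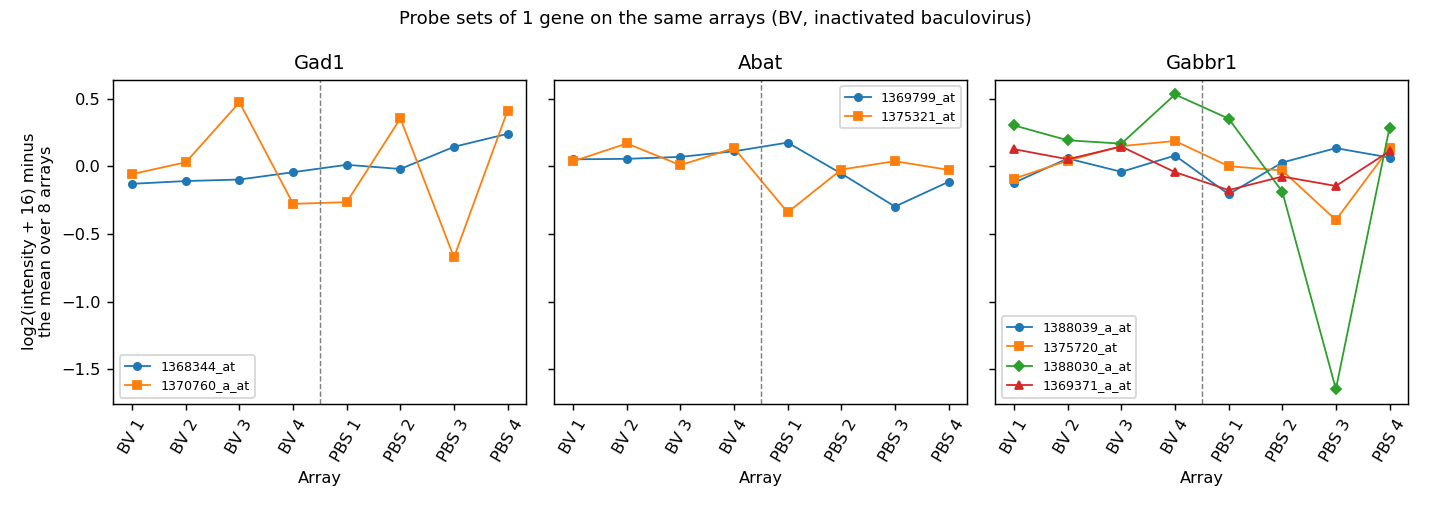
Level of each tested probe set of Gad1, Abat and Gabbr1 on the 8 arrays, as log2(intensity + 16) minus its mean over arrays, inactivated baculovirus arrays left of the dashed line and PBS arrays right of it. The lines of the Gad1 pair (r = -0.104) and the Abat pair (r = -0.245) differ in course, those of Gabbr1 1375720_at and 1388030_a_at both drop on PBS replicate 3 (r = 0.882), and that array is the lowest array for 1370760_a_at of Gad1, 1369799_at of Abat, and 1388030_a_at and 1375720_at of Gabbr1.

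PBS replicate 3 was the lowest of the 8 arrays for 6 of the 11 tested member probe sets, against 17.8% of all tested probe sets. They were Gad1 1370760_a_at, Slc32a1, Abat 1369799_at, Gabbr1 1375720_at and 1388030_a_at, and Gabbr2 1387383_at. PBS replicate 1 was the lowest for 4 of the 11, against 17.6% of all (Gad2, Abat 1375321_at, and Gabbr1 1388039_a_at and 1369371_a_at), and inactivated baculovirus replicate 4 was the highest for 4 of the 11, against 14.8% of all. PBS replicate 3 was the lowest for Slc17a7, and its cortical marker level was -0.14, against -0.05 to 0.11 on the other arrays. The part of that array's tissue composition in the members' values was not tested. Left out, it moved the log2 fold change of Slc32a1 to 0.11, of Gabbr2 1387383_at to 0.0098 and of Gad1 1370760_a_at to -0.13, while Gad1 1368344_at was at -0.17.

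Members were set against 4 measures of the arrays that use no member: the 3' minus 5' difference of beta-actin, a reading of RNA quality, and the levels of the striatal projection neuron, cortical neuron and astrocyte marker lists. None of the 4 separated the groups. The actin difference was 0.499 ± 0.161 on inactivated baculovirus arrays and 0.515 ± 0.0984 on PBS arrays (SD, n = 4 each), with p = 0.886 in an exact permutation test. The marker levels gave exact permutation p = 0.629 for striatal projection neurons, 0.429 for cortical neurons and 0.857 for astrocytes. Gad1 and the actin difference correlated at r = -0.113 (exact permutation p = 0.788).

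Of these 28 relations, 1 passed after Benjamini-Hochberg adjustment. Gabbr1 1388039_a_at followed the astrocyte list at r = 0.972 (exact permutation p = 0.000174, Benjamini-Hochberg 0.00486) and rho = 0.952 (exact permutation p = 0.00114, Benjamini-Hochberg 0.0319). Both were low on PBS replicate 1 and inactivated baculovirus replicate 1 and high on PBS replicate 3. Without those replicates 1, the arrays farthest from the median, r was 0.864, and it was 0.848 with median centring and 0.910 with quantile normalization. For the 3 other tested probe sets of Gabbr1 the correlation was lower, a difference that was not tested: 1375720_at gave r = -0.107, 1388030_a_at -0.480 and 1369371_a_at 0.0598. Of 10528 genes outside the astrocyte list, 31 (0.294%) followed it at r above 0.9.

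The mean level of the brightest 5% of probe sets was set beside both. This set was taken from the tested probe sets after leaving out all member probe sets and those that stand for the astrocyte list genes. It therefore holds neither Gabbr1 1388039_a_at nor the Gfap probe set. The level correlated with Gabbr1 at r = 0.611 and rho = 0.857, with exact permutation p values of 0.100 and 0.0107 (Benjamini-Hochberg 0.351 for r and 0.150 for rho). With the astrocyte list it correlated at r = 0.705 and rho = 0.857, with exact permutation p values of 0.0512 and 0.0107. This measure was chosen after seeing the data, and the part of overall brightness in the relation was not tested. Astrocyte markers themselves had 4 higher and 7 lower means of 11 tested, with Gfap at 1671 ± 89.2 against 1647 ± 203 and the water channel Aqp4 at 949 ± 43.1 against 1015 ± 87.0 (intensity, SD, n = 4 each).

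**Figure D4:**
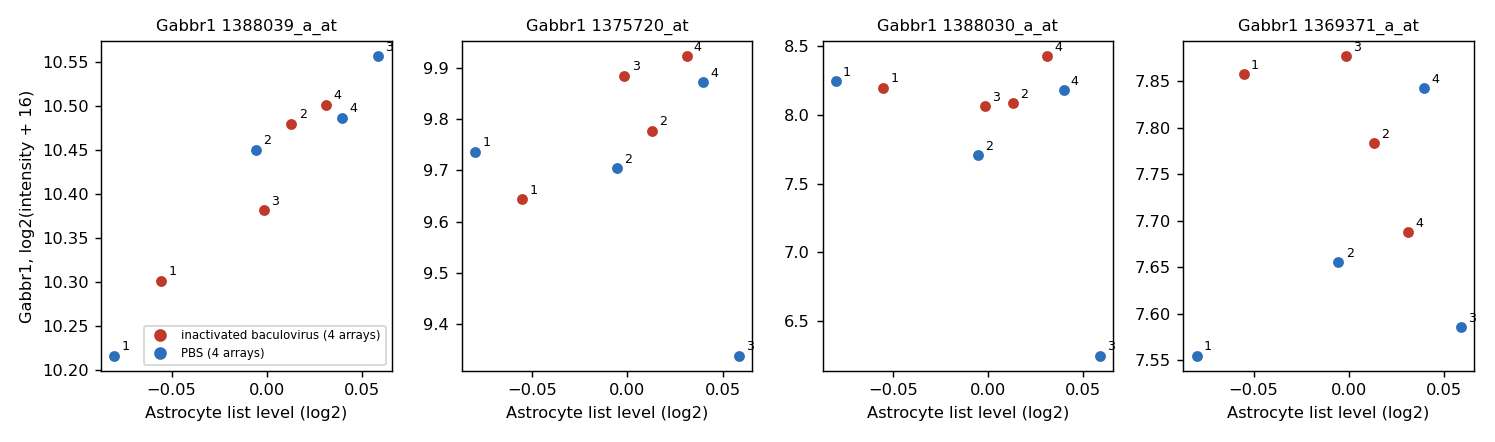
Level of the 4 tested Gabbr1 probe sets, as log2(intensity + 16), against the mean centred log2 level of the astrocyte marker list, 1 point for each array with its replicate number. The points of 1388039_a_at lie along a rising line (r = 0.972), and those of the other probe sets do not (r = -0.107, -0.480 and 0.0598).

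Before adjustment 2 further relations had an exact permutation p under 0.05 for r. Gabbr1 1388039_a_at followed the striatal projection neuron list at r = 0.827 (exact permutation p = 0.0112, Benjamini-Hochberg 0.157) and rho = 0.786 (exact permutation p = 0.0279), and r was 0.454 without PBS replicate 1 and inactivated baculovirus replicate 1. Abat followed the cortical list at r = 0.751 (exact permutation p = 0.0314, Benjamini-Hochberg 0.293) and rho = 0.643 (exact permutation p = 0.0962), and r was 0.466 without PBS replicate 3 and inactivated baculovirus replicate 3. For rho alone, Gabbr1 1388039_a_at and the cortical list ran inversely, at rho = -0.786 (exact permutation p = 0.0279, Benjamini-Hochberg 0.261) and r = -0.654 (exact permutation p = 0.0803). None of these passed the adjustment.

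Genes that work beside the members were taken from 4 lists, and 0 of them passed. Of 13 tested genes of other GABA metabolism and uptake, 5 had a higher and 8 a lower mean (median log2 fold change -0.03, against 0.02 over all 10539 genes), and 2 were under an unadjusted limma p of 0.05, both lower, as were 413 of all 10539 genes. Maob, a monoamine oxidase of astrocytes that can form GABA from putrescine, was at 550, 497, 541 and 455 after inactivated baculovirus, against 573, 578, 600 and 585 after PBS. The groups did not overlap, as held for 1 of these 13 genes and for 440 of all 10539. The means of Maob were 511 ± 43.6 and 584 ± 11.9 (SD, n = 4 each), a log2 fold change of -0.19 ± 0.07 (SE, limma adjusted p = 0.710). Slc38a2, a glutamine transporter that supplies the precursor glutamate, was at 334 ± 33.0 against 394 ± 50.2, with overlapping groups and a log2 fold change of -0.23 ± 0.10 (SE, limma adjusted p = 0.732). The related transporter Slc38a1 stood at -0.09 (limma adjusted p = 0.823).

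The medians of the receptor lists lay close to that of all genes. Partners and effectors of the GABA-B receptor had 6 higher and 6 lower means of 12 tested (median log2 fold change 0.0052), with the calcium channel subunit Cacna1a at 0.13, the transcription factor Atf4 at -0.13 and the potassium channel Kcnj6 at -0.10. GABA-A receptor subunits had 4 higher and 4 lower of 8 tested, out of 16 on the array (median 0.01). The beta subunit Gabrb2 was at 745 ± 55.2 against 800 ± 26.2 in intensity (SD, n = 4 each), a log2 fold change of -0.10 ± 0.07 (SE, limma adjusted p = 0.787), Gabre at 0.07 and Gabrr2 at 0.08. Genes of chloride transport and the inhibitory synapse had 6 higher and 4 lower of 10 tested (median 0.02), with the scaffold Gphn at -0.09, the vesicular monoamine transporter Slc18a2 at 0.13 and the interneuron transcription factor Dlx5 at 0.09. Other tested probe sets of the same gene had the opposite direction for Kcnj6 (2 of 2), Cacna1a (1 of 2), Slc18a2 (1 of 1) and Slc38a1 (1 of 1). Limma adjusted p values of the GABA-B, GABA-A and synapse genes named here ran from 0.787 to 0.933.

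**Figure D5:**
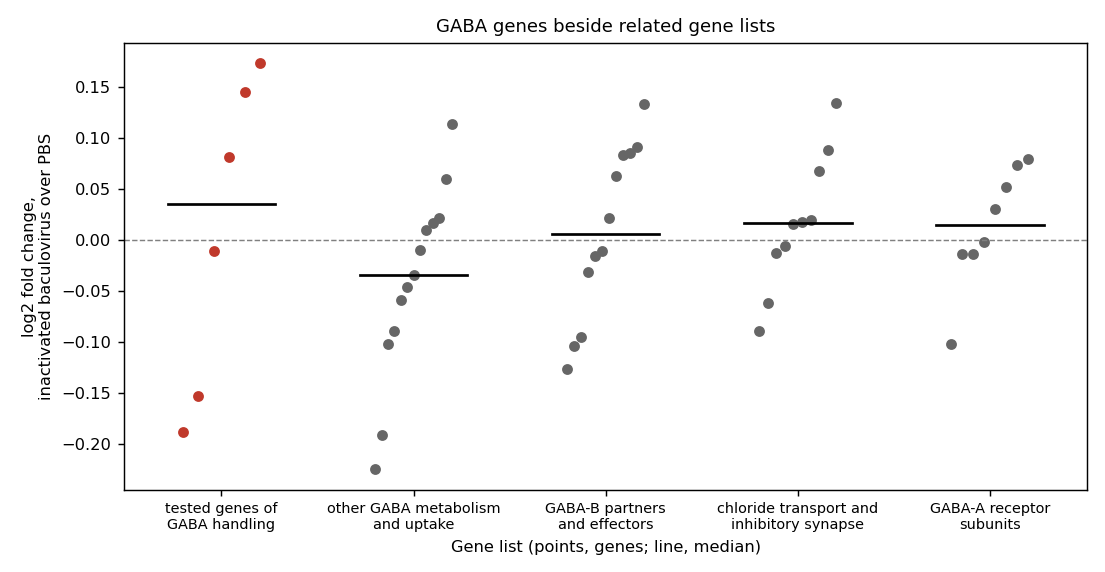
Log2 fold change, inactivated baculovirus over PBS, of the 6 tested member genes and of the tested genes of 4 related lists, with 1 point for each gene and a line at the median. Points of each list lie on both sides of 0, and the lowest members of the first list and of other GABA metabolism and uptake are Gad1 at -0.19 and Slc38a2 at -0.23.

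The genes whose levels were most like those of each member over the 8 arrays included no other member. For Gad1 they were Jakmip1 (r = 0.944), Ino80d (0.933) and Ipo13 (0.912). For Gad2 they were Smad1 and Pds5a (0.973 each) and Lhfpl2 (0.967), and for Slc32a1 Hacl1 (0.969), Smarcd3 (0.967) and Desi1 (0.960). With 8 arrays and 10538 other genes, correlations of this size describe these arrays only, and every point shares the array's tissue piece, labelling and scaling.

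For Abat the most similar genes were Tp53i11 (r = 0.982), Atxn7l1 (0.976) and Alg12 (0.971). For Gabbr1 they were Cpq (0.964), Gng7 (0.934), which is also on the striatal projection neuron list, and Ccdc22 (0.933), and for Gabbr2 Brd7 (0.946), Kif3c (0.938) and Mgat5b (0.914). For Slc6a11, which was below the filter, they were Pop4 (0.965), Ctla2a (0.944) and Ttc32 (0.924). Between members the highest correlation was that of Abat with Gabbr2, at r = 0.755, with Abat at rank 224 for Gabbr2, and Abat was far down the order for Gad1, at r = -0.669 and rank 10181.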

How the data were processed

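The deposited files give linear intensities, made with GCOS per the submitters' processing notes, which also name GCRMA. Which algorithm made them is not stated per the labels. On every array the mean with 2% trimmed at each end lay between 100.021 and 100.023. Per the study's text RNA was labelled with 1 of 2 kits, not tied to arrays in the sources used here. Detection calls were not used here.

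Intensities became log2(intensity + 16), which understates fold changes of dim probe sets. Array medians lay between 5.74 and 5.85, within the limit of 0.2, so nothing further was normalized. Probe sets above the 40th percentile of mean intensity were tested with limma 3.58.1 in R 4.3.3 (lmFit, eBayes with a trend, no block, two-sided), with Benjamini-Hochberg adjustment over all 18625. A gene was represented by its brightest probe set with 1 symbol. In the text n counts arrays. Permutation tests enumerated all 70 splits of the arrays, or all orders for a correlation. A marker list's level is the mean over its genes of log2 values after setting each gene's mean to 0.

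The members, the marker lists (striatal projection neurons, interneurons, cortical glutamatergic neurons, all neurons, astrocytes, oligodendrocytes, microglia and choroid plexus) and the related lists were chosen with earlier results of these data known. Beyond the lists given in the report, tested means higher and lower after inactivated baculovirus were 5 and 2 for interneurons, 7 and 4 for cortical neurons, 3 and 6 for all neurons, 3 and 4 for oligodendrocytes, 9 and 1 for microglia and 3 and 0 for choroid plexus, with 0 called. No marker was at 0, and the lowest intensity of a tested marker was 31.1. Of the other fixed markers, Aif1 was at 249 ± 37.8 against 224 ± 42.8, Mbp at 1968 ± 88.0 against 2012 ± 234 and Snap25 at 1751 ± 116 against 1796 ± 165 (intensity, SD, n = 4 each). Genes named are all members, the 3 of each related list with the smallest limma p, the 3 most correlated with each member, and fixed markers.

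Coordinates are left out, since the files name no build. In data simulated for 18625 probe sets, 200 of them changed, the same limma test recovered 0% at 1.25-fold, 71.0% at 1.5-fold and 98.0% at 2-fold. Wrong calls numbered 0, 12 and 13 in the same order. The simulated errors were independent between probe sets and arrays, without shared animals or array effects, so these shares are not the power of this design. The number of arrays limits precision: the 95% interval reached 0.231 to either side for the median probe set. Alternatives were other pseudocounts, normalizations and filters, array weights, the methods' t-test, a replicate block, the mean over all tested probe sets of a gene, and leaving out arrays 1 at a time.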

Additional observations from a re-analysis of the deposited data

Results flagged for a closer look

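Of 42 groups of 4 arrays examined, 2 held an array whose gap to its nearest neighbour, as a share of the group's range, was above the 95% limit of Dixon's test for 4 values, where chance gives about 1 in 20 groups. For Gad2 1369462_at the share was 0.901, with inactivated baculovirus replicate 1 at 34.6 and the other 3 arrays between 23.9 and 24.9. For Abat 1375321_at it was 0.830, with PBS replicate 1 at 23.4 and the others between 33.0 and 35.2.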

How the results depend on the processing

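No probe set was called in either direction under any setting, including the methods' t-test after adjustment. The count under an unadjusted p of 0.05, 1254, was 1921 with no level filter, 470 with the hybridization control level as a covariate (added after seeing the data), and 711 (without inactivated baculovirus replicate 2) to 1955 (without PBS replicate 4) with 1 array left out. Relations of members with array measures under 0.05 numbered 5 in place of 3 when group means were set to 0, where the permutation p is not exact. With the control level as a covariate the log2 fold change turned to -0.38 for Gad1 1370760_a_at, 0.19 for Gad2, -0.15 for Gabbr1 1375720_at and -0.12 for Gabbr2 1387383_at, and without a change of sign it was 0.0047 in place of 0.14 for Abat 1369799_at and 0.12 in place of 0.60 for Gabbr1 1388030_a_at. Gabbr1 1388039_a_at turned to 0.0024 with quantile normalization, and 0.22 with the mean of the gene's tested probe sets. The difference between the Abat probe sets turned to 0.0155 with a pseudocount of 64, and that between Gabbr1 1375720_at and 1369371_a_at to -0.0055 with a pseudocount of 1 and -0.0016 with quantile normalization. With 1 array left out, the fold change ran from -0.13 to 0.24 for Gad1 1370760_a_at and -0.0818 to 0.0318 for Gabbr1 1388039_a_at, and the difference from -0.15 to 0.14 for the Abat pair and -0.0808 to 0.0758 for Gabbr1 1375720_at and 1369371_a_at. The cause was not tested. Gad1 1368344_at kept its direction throughout, from -0.23 to -0.14 with 1 array left out.

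Replicate numbers gave no sign of pairing the arrays: deviations from group means correlated at -0.0051, 0.0160, 0.0088 and -0.0030 for numbers 1 to 4. Of the 8 arrays, 0 correlated best with its own number. These values cannot tell whether arrays share an animal. With the replicate block 0 probe sets were called and 1172 were under an unadjusted p of 0.05. Gad1 1368344_at stood at -0.19 (limma adjusted p = 0.785).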
